A study of Homo sapiens with 8 samples.

Results

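The DNA topoisomerase genes of human cells were followed on 8 Affymetrix arrays through every probe set annotated to TOP2A, TOP2B, TOP1, TOP1MT, TOP3A or TOP3B. The platform annotation gave 13 such probe sets among the 54675 of the table, and all 6 genes were represented. No probe set named a member together with another gene. Of the 13, 10 had a mean over the 8 arrays of at least 4.83 on the log2 scale, the 40th percentile of the table, and 3 were dimmer. All 13 were tested. In terms of genes, these are 6 of the 19775 with a probe set of their own.

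Topoisomerases relieve the twisting and linking of DNA that transcription, replication and chromosome segregation create. Type II enzymes (TOP2A and TOP2B) cut both strands and pass another duplex through the gap, whereas type I enzymes (TOP1, TOP1MT, TOP3A and TOP3B) cut a single strand. TOP2A is made mainly by dividing cells and separates replicated chromosomes before mitosis, TOP2B is also made by cells that do not divide, and TOP1 relaxes DNA ahead of polymerases.

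All groups of arrays came from HTETOP cells, an engineered derivative of the HT1080 fibrosarcoma line whose TOP2A expression is shut off by tetracyclines. They were doxycycline at 1 µg/ml (1 array) against its vehicle (1 array), and dexrazoxane at 100 µM (3 arrays) against its vehicle (3 arrays), each for 24 h. As background, both chromosomal TOP2A copies of this line were disrupted and TOP2A is made from a tetracycline-repressible transgene. That holds for vehicle cells too, and HTETOP is a single engineered line. Dexrazoxane is a bisdioxopiperazine that locks topoisomerase II as a closed clamp on DNA without raising the cleaved intermediate that poisons such as etoposide leave. It acts on TOP2A and TOP2B protein alike. Doxycycline represses the TOP2A transgene, so the design asks what silencing of TOP2A and catalytic inhibition of topoisomerase II each do to transcripts.

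The labels describe the RNA of every array as a pool of 3 cell passages, numbered 15 to 17 for the doxycycline pair. Nothing in them tells whether arrays 1 to 3 of a dexrazoxane group are separate cultures, and the p-values therefore reflect a spread between arrays that may be technical. Array medians were 4.81 and 4.82 for the doxycycline array and its vehicle array and ran from 5.49 to 5.57 over the other 6 arrays, so levels as deposited were not compared between the doxycycline and the dexrazoxane arrays. Of 11 mesenchymal markers 11 were above the array median on all 8 arrays, against 2 of 7 epithelial, 1 of 5 leukocyte and 1 of 5 endothelial markers. Precision is limited by how few arrays there are.

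In this line the TOP2A message comes from a transgene, so the chromosomal TOP2A window cannot be taken as the promoter of the measured message. The windows upstream of the chromosomal type II genes are shown as reference sequence only. They are the 250 bases before the RefSeq transcription start sites (build GRCh38.p14), for TOP2A at chr17:40417897-40418146 and for TOP2B at chr3:25664908-25665157 and chr3:25664373-25664622, all on the minus strand and written 5′ to 3′. Capitals mark CCAAT boxes (CCAAT, or ATTGG on the other strand) and the letters of the cell cycle homology region (TTTGAA, or TTCAAA on the other strand). Both elements are known from the promoters of genes that peak in G2 and mitosis.
TOP2A: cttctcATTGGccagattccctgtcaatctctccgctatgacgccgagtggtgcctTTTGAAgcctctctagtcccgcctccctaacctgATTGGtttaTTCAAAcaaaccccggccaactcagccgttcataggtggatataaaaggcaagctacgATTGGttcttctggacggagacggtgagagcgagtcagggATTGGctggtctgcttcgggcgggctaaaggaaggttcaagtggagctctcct
TOP2B, upstream start site: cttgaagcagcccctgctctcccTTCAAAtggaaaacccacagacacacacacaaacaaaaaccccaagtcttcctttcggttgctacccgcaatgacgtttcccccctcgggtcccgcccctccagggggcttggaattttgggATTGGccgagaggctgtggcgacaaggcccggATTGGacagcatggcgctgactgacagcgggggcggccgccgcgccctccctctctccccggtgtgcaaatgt
TOP2B, downstream start site: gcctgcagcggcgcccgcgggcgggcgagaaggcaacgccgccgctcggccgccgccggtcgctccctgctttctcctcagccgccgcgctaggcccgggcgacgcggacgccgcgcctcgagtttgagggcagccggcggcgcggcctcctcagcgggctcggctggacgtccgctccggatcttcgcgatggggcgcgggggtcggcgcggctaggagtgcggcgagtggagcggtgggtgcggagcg

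The TOP2A window held 4 CCAAT boxes, beginning at positions -244, -160, -93 and -53 from the start site, and 2 matches to the cell cycle homology region, at -194 and -151. The upstream TOP2B window held 2 CCAAT boxes and 1 match to the homology region, and the downstream one held neither. The TOP1, TOP3A and TOP3B windows held neither motif as well, and no TOP1MT window was examined. Among 35116 RefSeq promoter windows of the same length, 32% held a CCAAT box, 13.3% the homology region and 4.69% both. At least 4 CCAAT boxes stood in 0.874% of them. These matches describe the reference sequence. The labels do not name the promoter of the TOP2A transgene, and no measurement here bears on binding at these letters.

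TOP2A was nearly lost with doxycycline. Probe set 201291_s_at, the brightest for the gene, had a log2 value of 6.02 on the doxycycline array, against 11.98 on its vehicle array. Probe set 201292_at had 5.88 on the doxycycline array, against 9.52 on its vehicle array. The differences were -5.96 and -3.65 on the log2 scale, or 62.1-fold and 12.5-fold lower. They left 1.61% and 7.97% of the vehicle signal. The 2 probe sets ended near the same value from different vehicle levels. How much of the signal left is TOP2A message was not tested. The labels state that over 99.5% of TOP2A expression can be silenced in this line, a figure for which they name no assay. Signal ranked above 67.4% of all probe sets on the doxycycline array for 201291_s_at and above 65.8% for 201292_at, against 99.3% and 94.2% on the vehicle array.

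These were the lowest and second lowest differences of the 41097 probe sets with 1 gene symbol. For scale, 0.0073% of those probe sets were at least 2-fold lower with doxycycline and 0.00243% at least 2-fold higher. With 1 array in each group there is no error and no test. In bulk RNA, fewer cells that make a transcript and less transcript per cell cannot be told apart.

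The third TOP2A probe set, 237469_at, did not follow. It had 3.38 on the doxycycline array and 3.32 on its vehicle array, a difference of 0.06. Its signal ranked above 20.8% to 28.8% of the probe sets of each array. Where in the transcript each probe set lies was not examined, so whether 237469_at can see the transgene's message was not tested.

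TOP2A also fell with dexrazoxane. Probe set 201292_at had 8.15, 8.13 and 7.78 on the 3 dexrazoxane arrays, against 9.80, 9.88 and 9.66 on the 3 vehicle arrays. Every dexrazoxane array lay below every vehicle array. The mean was 8.02 ± 0.206 with dexrazoxane and 9.78 ± 0.110 with vehicle (SD, n = 3 each), a difference of -1.76 ± 0.14 (SE) or 3.38-fold. The limma adjusted p was 0.0315. It was the 1 probe set called lower among 41097 in this fit (0.00243%), and 0 were called higher, with 1648 at an unadjusted p under 0.05. When any 1 of the 6 arrays was left out of this fit the difference was -1.82 to -1.64 and the call was lost (limma adjusted p of 0.0666 to 0.449).

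The array numbers 1 to 3 are shared between the dexrazoxane and vehicle groups, and same-numbered arrays deviated together. With the replicate number as a block, 201292_at differed by -1.76 ± 0.09 (SE, limma adjusted p = 0.0018), and the pairs by -1.65, -1.75 and -1.88. It was called without each pair in turn (limma adjusted p of 2.39e-05 to 0.0036). In that fit with all pairs 0.204% of the probe sets were called lower and 0.168% higher.

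Probe set 201291_s_at gave 11.20, 10.92 and 10.52 on the dexrazoxane arrays, against 12.41, 12.55 and 12.40 on the vehicle arrays. Again the groups did not overlap, and the dexrazoxane arrays were spread more widely (SD 0.339) than the vehicle arrays (SD 0.086). The difference was -1.57 ± 0.17 (SE), which missed the threshold without the block (limma adjusted p = 0.152) and passed with it (0.0231). The pairs differed by -1.21, -1.63 and -1.88. In the dexrazoxane comparison as well these were the lowest and second lowest differences, 201292_at first. Probe set 201291_s_at kept its call with the block when a pair was left out (limma adjusted p of 0.000286 to 0.0046). The signal left was 29.6% of the vehicle signal for 201292_at and 33.6% for 201291_s_at. An exact permutation test of either probe set alone cannot go below p = 0.1 with 3 arrays against 3.

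The dim probe set 237469_at had 3.87, 4.01 and 4.04 with dexrazoxane, against 3.92, 4.46 and 4.15 with vehicle. The groups overlapped, and the difference of -0.20 had a 95% interval from -0.55 to 0.14 (limma, adjusted p = 1.00 without the block and 0.408 with it). Of the 13 topoisomerase probe sets, 1 was therefore called lower and 0 higher without the block, and 2 lower and 0 higher with it. Both called probe sets were those of TOP2A.

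**Figure D1:**
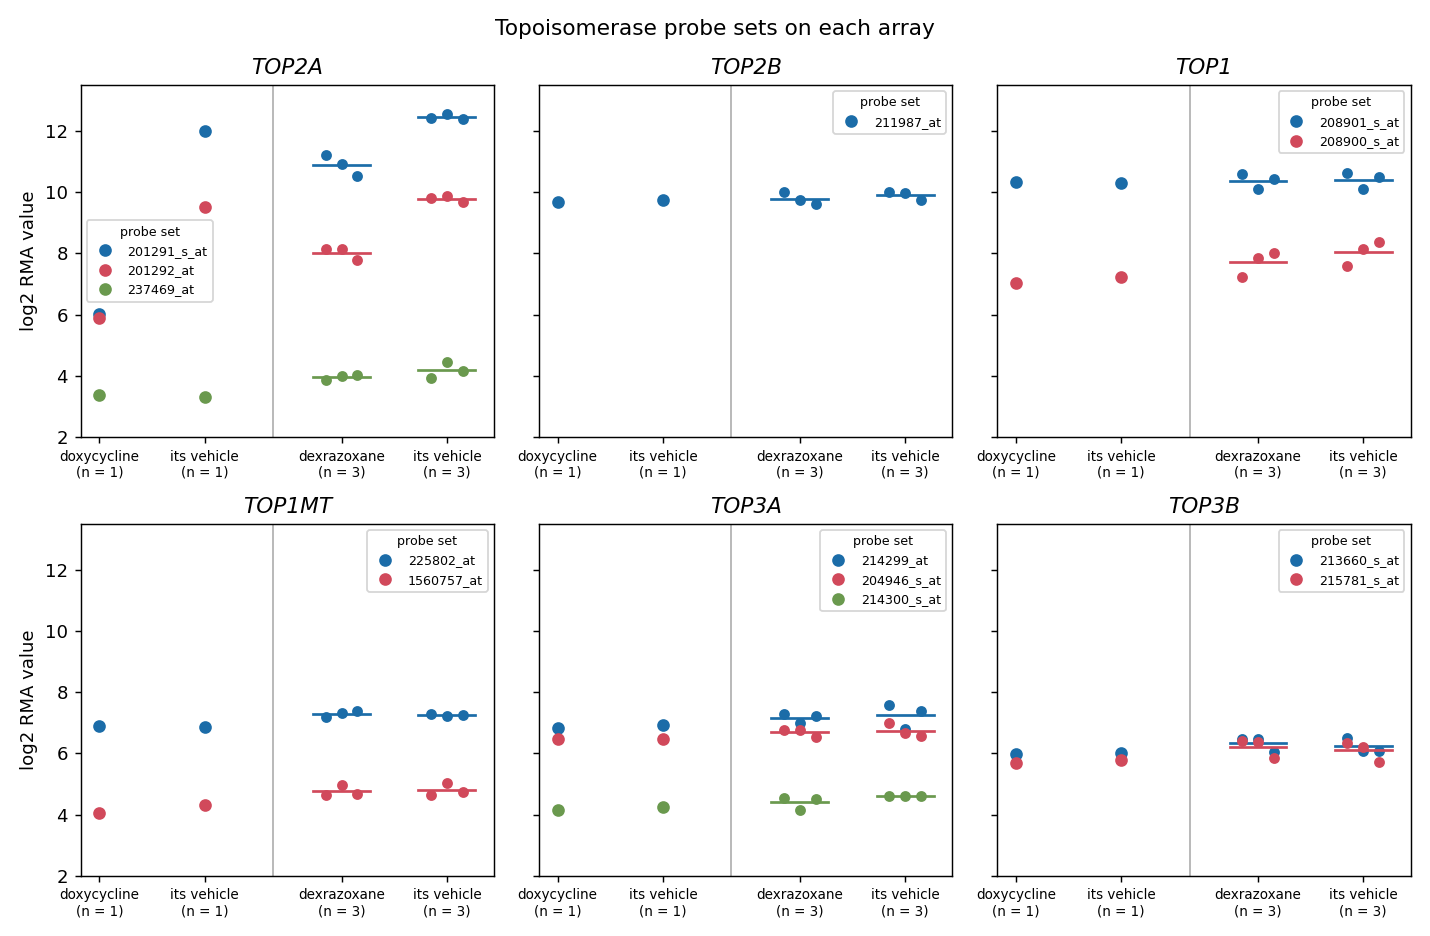
Log2 RMA values (vertical axis) of the 13 topoisomerase probe sets in 6 panels, one per gene. Points are single arrays, bars are means of 3 arrays, and colours are probe sets of a gene. TOP2A probe sets 201291_s_at and 201292_at stood at 6.02 and 5.88 with doxycycline and averaged 10.88 and 8.02 with dexrazoxane, below their vehicle arrays, while dexrazoxane and vehicle points overlapped for the other 5 genes, apart from the dim TOP3A probe set 214300_s_at.

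TOP2B, the isoform also made by resting cells, was represented by 211987_at alone. It had 10.00, 9.73 and 9.60 on the dexrazoxane arrays, against 10.02, 9.97 and 9.73 on the vehicle arrays. The groups overlapped. The difference of -0.13 was not called (limma adjusted p = 1.00, and 0.535 with the block). Its 95% interval ran from -0.45 to 0.19 without the block and from -0.33 to 0.07 with it, so a fall of the size seen for TOP2A lay outside both. With doxycycline it had 9.69, against 9.75 on the vehicle array.

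The change of TOP2A was set against that of the other topoisomerases within each array. The TOP2A minus TOP2B difference (201291_s_at minus 211987_at) averaged 1.10 on the dexrazoxane arrays and 2.55 on the vehicle arrays, a change of -1.44; only this change, and not the level of either probe set against the other, can be read from such values. With 201292_at in its place the change was -1.63. These contrasts used the 2 brighter TOP2A probe sets, chosen with their differences known, and left out 237469_at. Set against the 10 probe sets of the other 5 genes they gave 20 changes of -1.24 to -1.88, which all share the values of those 2 probe sets and are not separate results. The two-sided exact permutation p was 0.1 for each, the smallest that 3 arrays against 3 allow, and 0.1 after Benjamini-Hochberg adjustment over the 20.

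TOP1, the nuclear type IB enzyme and target of camptothecins, was measured by a pair of probe sets, neither of them called in the fits with and without the block, and the difference between them was not tested. Probe set 208901_s_at had 10.58, 10.10 and 10.44 with dexrazoxane, against 10.63, 10.09 and 10.50 with vehicle. Same-numbered arrays matched to within 0.06, and the difference was -0.03 (95% interval with the block -0.22 to 0.15, limma adjusted p = 0.896). With doxycycline it had 10.33, against 10.31 on the vehicle array.

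The other TOP1 probe set, 208900_s_at, had 7.24, 7.85 and 8.02 on the dexrazoxane arrays, against 7.60, 8.14 and 8.36 on the vehicle arrays. The groups overlapped, since the spread between numbers was wide, yet each dexrazoxane array lay below its same-numbered vehicle array, by -0.36, -0.29 and -0.33. The difference was -0.33 ± 0.25 (SE) without the block and -0.33 ± 0.08 (SE) with it (95% intervals -0.89 to 0.24 and -0.51 to -0.14). It was not called in either fit (limma adjusted p = 1.00 and 0.124), and was called with the block and trended, robust variance (limma adjusted p = 0.0298). For doxycycline the values were 7.02, against 7.23 on the vehicle array. Which TOP1 transcripts each probe set reads was not examined.

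TOP1MT, the mitochondrial type IB enzyme, was not called on either probe set. Probe set 225802_at had 7.18, 7.31 and 7.37 with dexrazoxane, against 7.27, 7.21 and 7.25 with vehicle, a difference of 0.04 (95% interval -0.21 to 0.29, limma adjusted p = 1.00). The groups overlapped. It had 6.88 on the doxycycline array and 6.86 on its vehicle array. The dimmer 1560757_at, which was below the 40th percentile, had 4.65, 4.95 and 4.68 with dexrazoxane, against 4.64, 5.05 and 4.73 with vehicle. With doxycycline its value was 4.06, against 4.30, and this difference of -0.24 was the most negative among the genes other than TOP2A as deposited (with quantile normalization it was -0.19, against -0.24 for TOP1 208900_s_at).

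TOP3A works with the BLM helicase to resolve linked DNA strands after recombination and also separates mitochondrial genomes. Probe set 214299_at had 7.29, 6.99 and 7.22 with dexrazoxane, against 7.58, 6.78 and 7.39 with vehicle, and 204946_s_at had 6.75, 6.77 and 6.52, against 6.98, 6.65 and 6.58. The groups overlapped for both, and the pairs went in both directions. Their differences were -0.08 and -0.06, with limma adjusted p = 1.00 for both.

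The third TOP3A probe set, 214300_s_at, was dim, and its 3 vehicle arrays nearly coincided. It had 4.54, 4.15 and 4.50 with dexrazoxane, against 4.61, 4.61 and 4.61 with vehicle. All dexrazoxane arrays were lower, by -0.07, -0.45 and -0.11 in the pairs, but the difference of -0.21 was not called (limma adjusted p = 1.00, and 0.382 with the block). With the pair of TOP2A probe sets this made 3 of 13 topoisomerase probe sets whose dexrazoxane arrays all lay below the vehicle arrays, and 0 whose arrays all lay above, where 4.05% and 4.89% of all probe sets did so. With doxycycline the TOP3A probe sets differed by -0.10 (214299_at), 0.01 (204946_s_at) and -0.07 (214300_s_at).

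TOP3B, which acts on RNA as well as DNA, had a pair of probe sets, both uncalled. Probe set 213660_s_at had 6.47, 6.48 and 6.05 with dexrazoxane, against 6.51, 6.09 and 6.08 with vehicle. Probe set 215781_s_at had 6.41, 6.39 and 5.86, against 6.33, 6.22 and 5.73, and each dexrazoxane array of this probe set lay above its same-numbered vehicle array. The pairs of 213660_s_at differed by -0.04, 0.39 and -0.03. The differences were 0.11 and 0.13, and became -0.04 for 213660_s_at without pair 2 and -0.06 for 215781_s_at without vehicle array 3 (with all arrays, limma adjusted p = 1.00 for both, and 0.706 and 0.521 with the block). With doxycycline they were -0.03 and -0.10.

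For the 10 probe sets of the 5 genes other than TOP2A, dexrazoxane differences ran from -0.33 to 0.13 and doxycycline differences from -0.24 to 0.02. Their lowest limma adjusted p was 1.00 without the block and 0.124 with it. The SD of the difference over all 41097 probe sets was 0.163 for dexrazoxane and 0.171 for doxycycline, with medians of 0.002 and 0. Over all 13 members 10 were below 0 with dexrazoxane, where 49.4% of all probe sets were, and 9 with doxycycline, where 42.4% were. Directions were the same in 3 of 3 pairs for 7 of 13, against 37.8% of all probe sets.

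**Figure D2:**
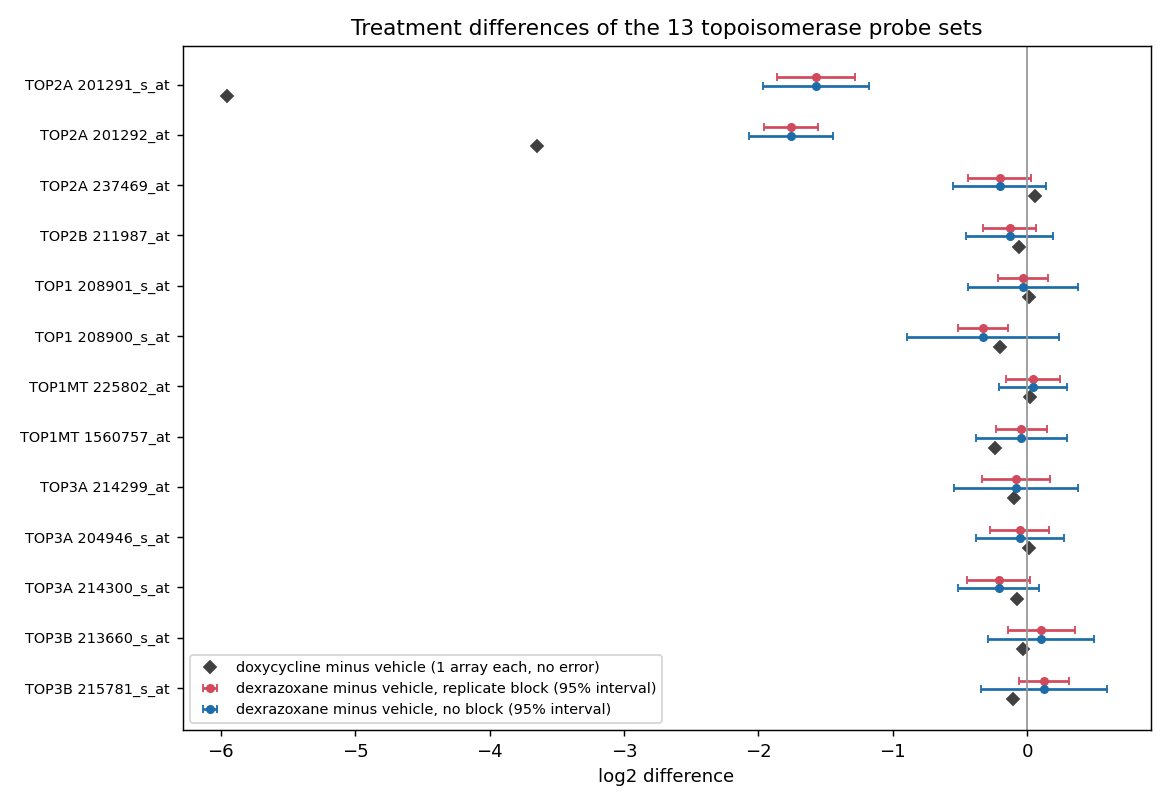
Log2 differences (horizontal axis) of the 13 topoisomerase probe sets. Red and blue points are dexrazoxane minus vehicle (3 arrays each) with the limma 95% interval with and without the replicate block, and grey diamonds are doxycycline minus vehicle (1 array each). The intervals of TOP2A 201291_s_at and 201292_at lie well below 0 (-1.96 to -1.18 and -2.07 to -1.44 without the block), and the intervals of the other 11 without the block include 0. With the block that of TOP1 208900_s_at runs from -0.51 to -0.14 and those of the other 10 include 0.

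TOP3A and TOP3B act in complexes, and 5 partner genes were examined with the probe set that stood for each gene. BLM, the helicase, had a difference of -0.39 with dexrazoxane, and RMI1 and RMI2, the OB-fold subunits that join BLM and TOP3A, differed by -0.44 and -0.42. TDRD3, the scaffold of TOP3B, differed by 0.06, and FMR1, an RNA-binding protein that associates with TOP3B, by -0.09. None of the 5 was called with or without the block when all probe sets were tested, where 0.243% of the 19775 probe sets standing for a gene were called lower with the block and 0.243% higher.

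The 3 genes of the BLM complex were called lower in a narrower fit of 1 probe set per gene above the filter, with the block. There BLM, RMI1 and RMI2 had limma adjusted p of 0.0372, 0.0234 and 0.0264, and 2.44% of 14731 genes were called lower and 2.42% higher. RMI2 had 7.39, 7.43 and 7.45 with dexrazoxane, against 7.88, 7.73 and 7.93 with vehicle, and its groups did not overlap. Those of BLM and RMI1 did. Without pair 1 none of the 3 was called (limma adjusted p of 0.0780 to 0.139), and without pair 3 RMI1 alone was (0.0494). With doxycycline BLM differed by 0.18, RMI1 by -0.07 and RMI2 by 0.

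Among 6 genes whose products free, modify or bind topoisomerases, none was called when all probe sets were tested. TDP1, which cleaves TOP1 from a DNA end, differed by -0.26 with dexrazoxane, and TDP2, which does so for TOP2, by -0.03. TOPORS, a ubiquitin and SUMO ligase that binds TOP1, differed by -0.06, and the SUMO ligase genes ZNF451 and PIAS4 by -0.02 and 0.12. TOPBP1, a checkpoint scaffold first found as a TOP2 binding protein, differed by -0.40 and was the 1 called lower in the fit of 1 probe set per gene (limma paired adjusted p = 0.0312, but 0.117 without pair 1 and 0.125 without pair 3). SPO11 and TOP6BL, the meiotic topoisomerase VI-like pair, differed by 0.07 and 0.22, and SPO11 was below the filter.

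Of 8 factors known to act on the chromosomal TOP2A promoter, 7 had a probe set annotated to them alone. That promoter need not drive the transgene. None of the 7 was called when all probe sets were tested. The CCAAT-binding NF-Y subunits NFYA, NFYB and NFYC differed by -0.05, -0.23 and 0.11 with dexrazoxane, SP1 and SP3 by -0.14 and -0.16, and MYBL2, a cell cycle transcription factor, by -0.12. UHRF1, a methylation maintenance factor once named for binding the inverted CCAAT boxes of TOP2A, differed by -0.39. It was called lower in the fit of 1 probe set per gene (limma paired adjusted p = 0.0296, but 0.106 without pair 1 and 0.123 without pair 3). Beside TOP1MT, 7 mitochondrial DNA maintenance genes had a median of 0.04 with 0 called in any of these 3 fits. They spanned -0.22 for TFAM, which packages mitochondrial DNA, to 0.25 for POLRMT, the mitochondrial RNA polymerase, with POLG at 0.07, POLG2 at -0.03, TWNK at 0.17, SSBP1 at 0.04 and MGME1 at -0.08.

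The chromosomal TOP2A gene is counted among genes that peak in G2 and mitosis, and 30 others of that kind were compared with TOP2A. In these cells TOP2A is made from a transgene, and whether that transcript follows the cell cycle was not tested. All 30 were below 0 with dexrazoxane, with a median of -0.39 and a range from -0.67 to -0.14, against a median of 0.01 over all genes, and 49.4% of all probe sets were below 0. For 8 of the 30 every dexrazoxane array lay below every vehicle array, where 4.05% of all probe sets did so. The 30 genes were read on the same 6 arrays and are not separate results. None of the 30 lay as low as TOP2A. Without the block 0 of 30 were called, and with it 2 were called lower, CDK1 (-0.53 ± 0.08, SE, limma adjusted p = 0.0486) and TTK (-0.60 ± 0.09, SE, 0.0485). Of the probe sets standing for a gene 0.243% were called lower with the block. In the fit of 1 probe set per gene 19 were called lower and 0 higher, where 2.44% of all genes were called lower and 2.42% higher. That count was 4 without pair 1, 23 without pair 2 and 9 without pair 3, and the count of 2 became 0, 4 and 1, with neither CDK1 nor TTK among them. The smallest p-values without the block belonged to CCNB1, the cyclin of mitotic entry (-0.40), CENPA, the histone H3 variant of centromeres (-0.38), HMMR, which encodes a spindle component (-0.60), and TTK, the spindle checkpoint kinase.

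With doxycycline the same 30 genes had a median of -0.03 and ran from -0.27 to 0.15, with 17 below 0. TOP2A differed by -5.96 in that pair. Of the G2/M genes 25 had a promoter in the RefSeq table. At least 1 upstream window held a CCAAT box in 20 of these 25 and the homology region in 14, and 12 had both in the same window. Counted in the same way over all genes of the table (27305), the shares were 37%, 16.1% and 5.79%.

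**Figure D3:**
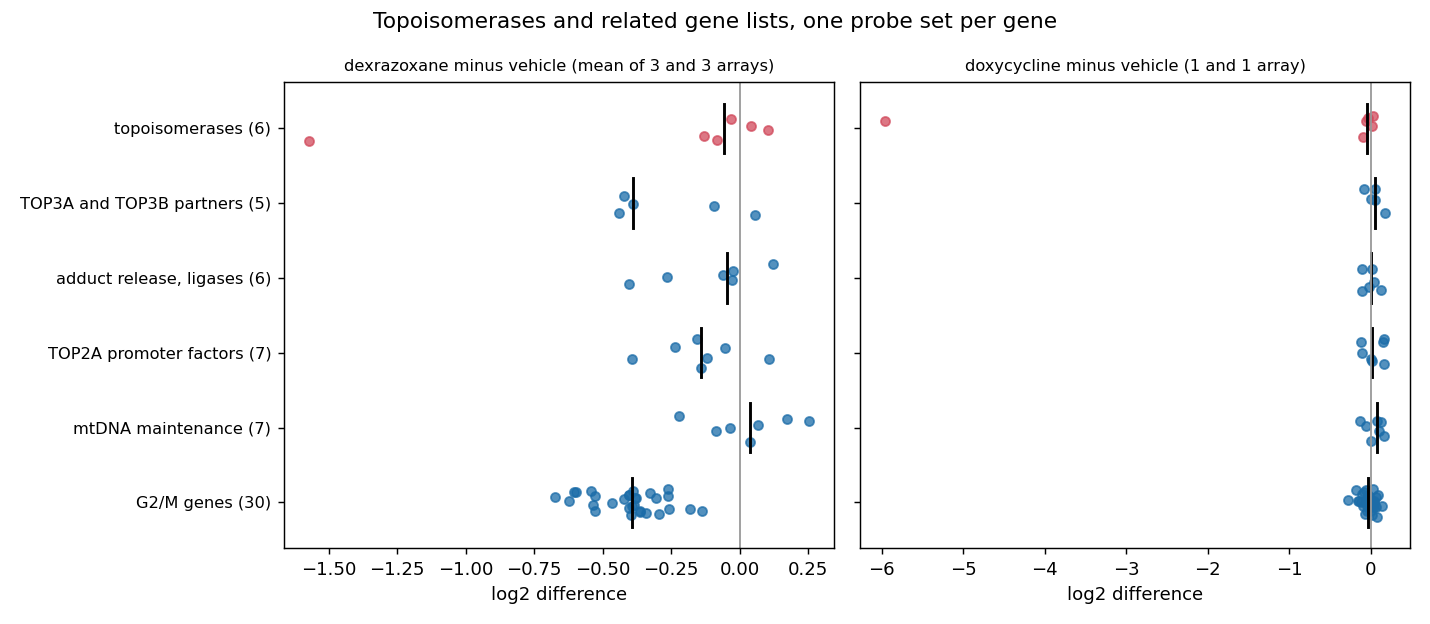
Log2 differences (horizontal axes) of topoisomerases (red) and related gene lists (blue), with 1 probe set per gene, for dexrazoxane minus vehicle on the left and doxycycline minus vehicle on the right. Points are genes, black bars are list medians, numbers in brackets count genes, and the horizontal scales differ. TOP2A stands apart at -1.57 and -5.96, and the G2/M genes lie from -0.67 to -0.14 with dexrazoxane and from -0.27 to 0.15 with doxycycline.

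Genes whose values followed those of TOP2A most closely over the 6 dexrazoxane and vehicle arrays were sought by the root mean square difference from 201291_s_at after each profile was centred on its own mean. The second TOP2A probe set differed by 0.137 log2 units on this measure. The 8 nearest of 14730 candidate genes lay between 0.338 and 0.440, where the median candidate lay at 0.836. They were KCNMA1, a potassium channel subunit gene, the receptor gene ROR1, SHROOM2, an actin organiser, the teneurin gene TENM2, TMEM132D, the formin gene FMNL2, the anion exchanger gene SLC26A4 and the potassium channel gene KCNU1. None of the 8 was in the G2/M list, an outcome fixed by the measure. The G2/M genes differed by -0.67 to -0.14 with dexrazoxane, too little for any of them to come within 0.440 of TOP2A.

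KCNMA1 was nearest, with 9.05, 8.86 and 9.06 on the dexrazoxane arrays, against 10.08, 10.24 and 9.87 on the vehicle arrays, a difference of -1.07. ROR1 followed, with 7.06, 6.42 and 6.55, against 8.03, 7.66 and 7.42, a difference of -1.02. The measure favours genes with a strongly negative difference, since the profile of TOP2A is mostly its own difference between the groups. With doxycycline these 8 genes did not follow TOP2A. KCNMA1 differed by -0.12 and ROR1 by -0.10, and the others ran from -0.11 for FMNL2 to 0.07 for TMEM132D.

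**Figure D4:**
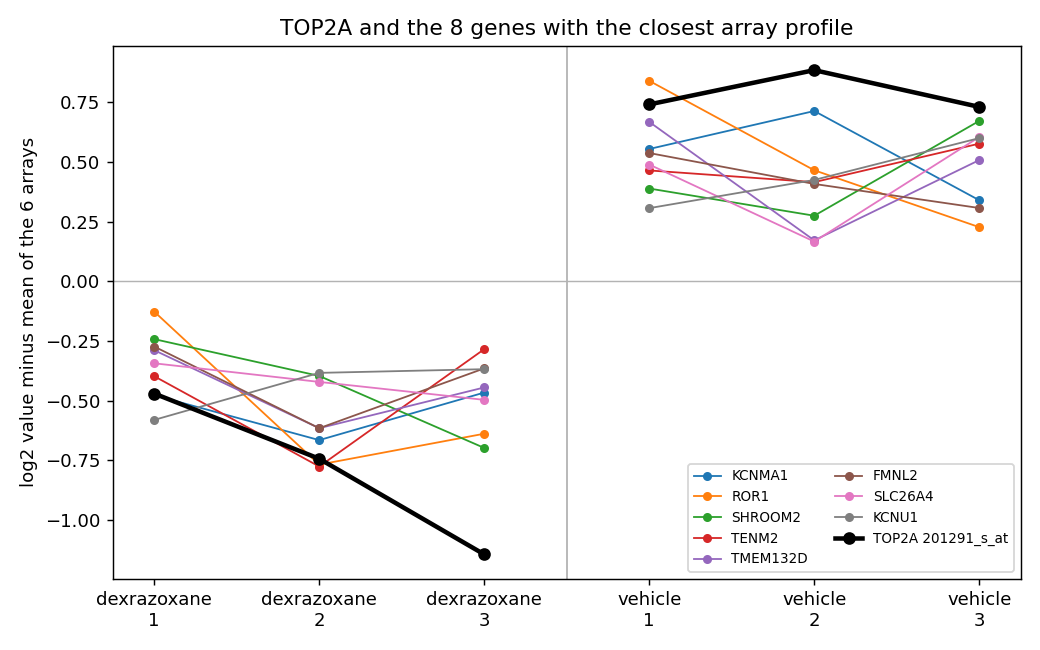
Log2 values minus the mean of the 6 arrays (vertical axis) for TOP2A 201291_s_at (black) and the 8 genes with the closest profile, on the dexrazoxane arrays (left) and the vehicle arrays (right), numbered as in the labels. Lines join arrays of a group for legibility only. All 9 genes are below 0 on each dexrazoxane array and above 0 on each vehicle array, and TOP2A spans the widest range between the group means.

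The genes next to the chromosomal TOP2A locus in the RefSeq table (assembly GRCh38.p14) had no called difference. RARA, RARA-AS1 and GJD3 lie before it and IGFBP4, TNS4 and CCR7 after it among genes with a probe set. Their dexrazoxane differences ran from -0.07 to 0.20, with limma adjusted p-values from 0.399 upwards with the block. With doxycycline they ran from -0.36 for TNS4 to 0.21 for CCR7, which was below the filter. Where the TOP2A transgene lies was not examined, so these values do not describe the surroundings of the measured message.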

How the data were processed

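Expression was measured with Affymetrix arrays in HTETOP cells. The deposited table holds log2 values per probe set made with RMA by the authors, per the submitters' processing notes. The labels do not tell whether all arrays were normalized together. The platform annotation named the probe sets, and 41043 of 41097 probe sets with 1 symbol were updated through Entrez identifiers.

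The dexrazoxane comparison used the linear models of limma 3.58.1 (R 4.3.3) with eBayes and two-sided p-values, adjusted by Benjamini-Hochberg over 41097 probe sets with no filter at a threshold of 0.05, without and with the replicate number as a block. Deviations from group means correlated at 0.748, 0.456 and 0.558 between same-numbered arrays and at -0.543 to 0.160 between others. The numbers were therefore taken as pairs, a choice made from the same values that were then tested. Centring on group means by itself lowers the correlations between others where same-numbered ones are positive. The doxycycline pair has no test. The procedure was tested on simulated data with independent noise and no effect of replicate number. That test cannot tell how the block behaves where same-numbered arrays deviate together.

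Every member probe set was named, with list genes by smallest p, the 8 nearest profiles and the 3 neighbours on each side. The probe set with the highest mean stood for its gene. Members and lists were chosen with earlier results of these data known. The list counts from 1 probe set per gene or without a pair were added after seeing the data.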

Additional observations from a re-analysis of the deposited data

How the results depend on the processing

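TOP2A 201291_s_at kept its direction throughout and was called with the replicate block at -1.57 as deposited, with the 40th percentile filter, with 1 probe set per gene, with every probe set except controls and with trended, robust variance, at -1.58 with median centring and at -1.55 with quantile normalization of the 8 arrays (limma adjusted p of 0.0043 to 0.0296). Without the block it was called with trended, robust variance (-1.57, 0.0361). Leaving out 1 array without the block gave -1.73 to -1.39, with no call, and leaving out 1 pair with the block gave -1.75, -1.54 and -1.42, called each time. TOP2A 201292_at lost its call without the block when any array was left out (0.0666 to 0.449) and with quantile normalization (0.0600).

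The topoisomerase count of 1 without the block became 0 with 1 probe set per gene and with quantile normalization, 0 when any array was left out, and 2 with trended, robust variance. With the block it was 2 in the other settings and when a pair was left out, 1 with 1 probe set per gene, and 3 with trended, robust variance. Over all probe sets, calls lower without the block numbered 1, and 0 with 1 probe set per gene, quantile normalization or an array left out, and 2 with trended, robust variance. With the block 69 were higher and 84 lower, 164 and 271 with the filter, 357 and 360 with 1 probe set per gene, 41 and 45 with every probe set except controls, 904 and 1107 with trended, robust variance, 70 and 89 with median centring, 27 and 38 with quantile normalization, and 10, 129 and 64 higher and 13, 140 and 102 lower without pair 1, 2 or 3. The number of features tested changes the adjustment; why the other settings differ was not tested.

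With doxycycline 4 probe sets were at least 2-fold apart, and TOP2A kept its direction in every setting tried. Probe set 201292_at was at -3.48 with quantile normalization and at -3.39 when the 3 dexrazoxane vehicle arrays replaced its own vehicle array after quantile normalization (both choices changed), where it was -3.65 as deposited.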
